A study of Homo sapiens with 6 samples.

Results

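The GADD45 genes encode small stress-induced nuclear proteins named for growth arrest and DNA damage. GADD45A, GADD45B and GADD45G are the paralogs of the family, and GADD45GIP1 encodes a protein first described as a GADD45 binding partner, also known as CRIF1, which is a component of the large subunit of the mitochondrial ribosome. These 4 genes were chosen by name with the difference of GADD45B between these arrays already known, so their own differences are given below as a description and carry no test. Each had 1 probe set that named that gene alone, and 18377 genes had such a probe set in all.

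Total RNA of HEK293 cells, an established line from human embryonic kidney, was hybridized to Affymetrix HuGene 1.0 ST arrays, with 3 arrays labelled HEK-BAHD1 and 3 labelled HEK293-CT. HEK-BAHD1 cells carry a BAHD1 cDNA, which encodes a chromatin repressor, integrated at the engineered FRT site of a Flp-In derivative of HEK293 and driven by the cytomegalovirus promoter. HEK293-CT cells carry an insert at that same site, described in the labels as an out-of-frame β-galactosidase sequence and in the methods as an empty vector. Both lines are pools of stable transfectants kept under hygromycin, and the arrays of a line come from separate flasks of its pool, so the spread below is that between cultures. The methods place the control cells and HEK-BAHD1 replicate 1 at an earlier passage than HEK-BAHD1 replicate 2, and state no passage for replicate 3. They do not say whether these numbers match those of the array titles.

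BAHD1 itself went against the labels, with log2 signals of 6.75, 7.0 and 6.76 on the arrays labelled HEK-BAHD1 and 10.06, 9.81 and 9.93 on those labelled HEK293-CT, a log2 fold change of -3.10 (limma, adjusted p = 3.12e-05). The methods state that HEK-BAHD1 cells were checked for BAHD1 protein by immunofluorescence and immunoblot, and what the arrays show is only that this transcript runs against their labels. Every direction below therefore follows the deposited labels, and each sign would turn if the labels were exchanged. Of the markers listed for the HEK293 line, the neurofilament NEFL, vimentin (VIM), the keratins KRT8 and KRT18 and the cadherin CDH2 had log2 signals of 9.69 or more on all arrays, whereas the kidney regulators PAX2 and LHX1 lay between 5.60 and 5.98 and the neurofilament NEFM between 4.21 and 5.47. Genes of blood, endothelium, liver and fibroblasts (PTPRC, CD3E, PECAM1, ALB and DCN) lay at 4.42 or less, and none of them was called. NEFL and NEFM were called higher, by 0.40 and 0.77, and VIM lower, at -0.28 (limma adjusted p = 0.00766, 0.013 and 0.0235). The part of such differences between the pools in the results below was not tested. Array medians lay between 5.46 and 5.56, and the median log2 difference over all 21062 tested probe sets was 0.0033.

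GADD45 proteins have no enzymatic activity of their own and act by binding others. They bind and activate the kinase MAP3K4 upstream of p38 and JNK, they bind PCNA and the CDK1-cyclin B1 complex, and they have been linked to active DNA demethylation through TDG, TET and repair enzymes. GADD45A is induced by DNA damage, GADD45B responds to NF-kB and TGF-beta signals, and GADD45G was described as cytokine-induced.

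The windows upstream of GADD45B and GADD45G are shown because these paralogs both had lower signals on the arrays labelled HEK-BAHD1, and their upstream sequences share runs of letters, picked out after the sequences were seen. RefSeq sequences of build GRCh38.p14 were matched for 3 of the 4 genes, GADD45B, GADD45G and GADD45GIP1. The windows hold the 250 bases that end just before the gene start, on the plus strand, at chr19:2475877-2476126 for GADD45B and chr9:89604762-89605011 for GADD45G. Capitals mark the E-box CACGTG, the CCAAT box and the TATA box TATAAA, searched on both strands. Only exact letters were searched, so similar letters, such as tatataag near the end of the GADD45G window, are left unmarked.
GADD45B: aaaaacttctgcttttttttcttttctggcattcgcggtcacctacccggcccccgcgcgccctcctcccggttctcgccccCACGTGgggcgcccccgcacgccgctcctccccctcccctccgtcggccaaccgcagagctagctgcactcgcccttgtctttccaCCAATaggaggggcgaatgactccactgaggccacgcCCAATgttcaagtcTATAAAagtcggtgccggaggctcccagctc
GADD45G: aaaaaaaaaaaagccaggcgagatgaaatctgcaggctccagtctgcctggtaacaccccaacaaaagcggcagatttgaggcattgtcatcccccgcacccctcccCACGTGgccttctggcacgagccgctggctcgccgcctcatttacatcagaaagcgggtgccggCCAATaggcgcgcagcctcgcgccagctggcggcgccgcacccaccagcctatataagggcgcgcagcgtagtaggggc

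Both windows held 1 E-box, the letters that MYC and other E-box factors bind. It began at position -168 in GADD45B and -143 in GADD45G, counted back from the gene start, and 6.49% of 27305 such windows held CACGTG. A longer run around it, CCCCACGTGG, was common to both and was found in 43 windows in all, or 0.157%. The CCAAT box, which NF-Y binds, matched at -82 and -45 in GADD45B and at -79 in GADD45G, and 33% of windows held CCAAT. At -82 and -79 both read CCAATAGG, a run in 0.974% of windows. Other shared runs of at least 8 letters held neither motif. They were TTCTGGCA, CCCCCGCAC, CCCCTCCCC and GGTGCCGG, found in 0.934%, 0.692%, 6.84% and 1.41% of windows. An E-box together with a CCAAT box occurred in 2.08% of all windows. The window of GADD45GIP1, on the minus strand at chr19:12957224-12957473, had neither, and had 1 match each to TATAAA and to the GC box GGGCGG, which 11.1% and 42.3% of windows held. The CRE letters TGACGTCA and TGACG, the AP-1 letters TGANTCA, the FOXO letters GTAAACA and the SMAD letters GTCTAGAC matched in none of the 3 windows, and were held by 1.77%, 21.7%, 6.6%, 2.98% and 0.176% of all windows. The G and C content was 63.2% with 21 CpG in GADD45B and 61.6% with 20 CpG in GADD45G, against 50.4% with 11 CpG in GADD45GIP1. These matches are letters in a window, and binding was not measured here.

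**Figure D1:**
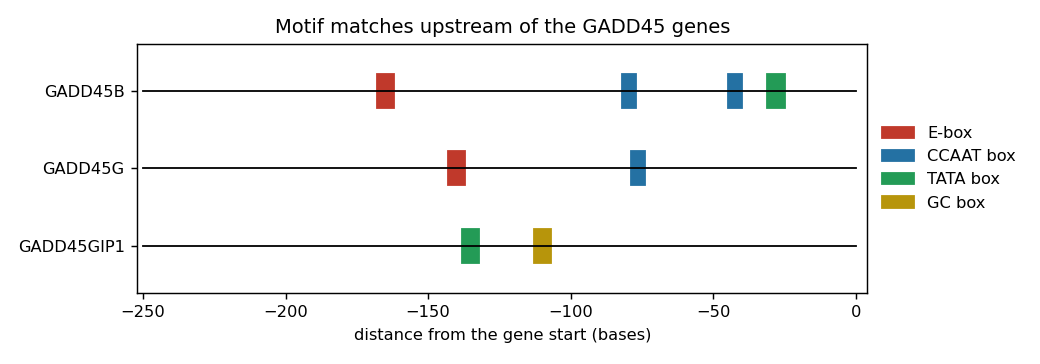
Exact matches to the E-box, CCAAT box, TATA box and GC box (coloured blocks, drawn to scale) in the 250 bases upstream of 3 GADD45 genes. The horizontal axis is the distance from the gene start in bases. GADD45B and GADD45G each have an E-box, at -168 and -143, and a CCAAT box, at -82 and -79.

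GADD45B, which restrains JNK signalling downstream of NF-kB and mediates TGF-beta-induced apoptosis, had the largest difference of the family. Its log2 signal was 7.78, 7.96 and 8.01 on the arrays labelled HEK-BAHD1, against 9.05, 8.98 and 9.01 on those labelled HEK293-CT. The 3 arrays labelled HEK-BAHD1 all lay below the others, by nearly 1 log2 unit at the closest. The means were 7.92 ± 0.12 in HEK-BAHD1-labelled arrays and 9.01 ± 0.035 in HEK293-CT-labelled arrays (SD, n = 3 each), so that the log2 difference was -1.10 (standard error 0.071), or 2.14-fold lower. In the order of all tested differences from the lowest it ranked 23 of 21062. The gene lies on chromosome 19 at 2476127 to 2478257 (GRCh38.p14, as for the positions below). In bulk RNA, fewer expressing cells and less RNA per cell cannot be told apart.

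GADD45G, the member first found as a cytokine-response gene, differed next most. Its log2 signal was 5.93, 6.09 and 6.04 on the arrays labelled HEK-BAHD1 and 6.60, 6.83 and 6.84 on those labelled HEK293-CT. It was the dimmest of the members. The median of tested probe sets lay between 6.40 and 6.46 on each array, above its signals on the arrays labelled HEK-BAHD1. The groups did not overlap, and the gap between the nearest arrays lay between HEK-BAHD1 replicate 2 and HEK293-CT replicate 1. The means were 6.02 ± 0.082 in HEK-BAHD1-labelled arrays and 6.76 ± 0.14 in HEK293-CT-labelled arrays (SD, n = 3 each), a log2 difference of -0.74 (standard error 0.082), or 1.67-fold lower, which ranked 78 from the lowest. The gene lies on chromosome 9 at 89605012 to 89606555.

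GADD45A, which takes part in the G2/M checkpoint, had log2 signals of 8.98, 9.06 and 9.12 on the arrays labelled HEK-BAHD1, against 9.67, 9.74 and 9.65 on those labelled HEK293-CT. Again no array of the one label reached those of the other. The means were 9.05 ± 0.070 in HEK-BAHD1-labelled arrays and 9.69 ± 0.047 in HEK293-CT-labelled arrays (SD, n = 3 each), a log2 difference of -0.63 (standard error 0.060), or 1.55-fold lower, at rank 125. It lies on chromosome 1 at 67685201 to 67688334.

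GADD45GIP1 stood apart from the paralogs that its protein binds. Its log2 signal was 8.56, 8.50 and 8.75 on the arrays labelled HEK-BAHD1 and 8.72, 8.66 and 8.68 on those labelled HEK293-CT. The groups overlapped, because HEK-BAHD1 replicate 3 was the highest of the 6 arrays. The means were 8.60 ± 0.13 in HEK-BAHD1-labelled arrays and 8.69 ± 0.031 in HEK293-CT-labelled arrays (SD, n = 3 each), with a log2 difference of -0.083 (standard error 0.074), at rank 6045. It lies on chromosome 19 at 12953119 to 12957223.

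Thus 3 of the 4 genes passed the threshold used for calling a transcript lower, namely group medians that lay more than 0.2 apart with a limma adjusted p below 0.05, and GADD45GIP1 did not. Of all 21062 tested probe sets, 6.39% were called lower, and in 16.9% all arrays labelled HEK-BAHD1 lay below all those labelled HEK293-CT, as in these 3 genes. The calls over all probe sets were 1430 higher and 1345 lower, and 1052 higher and 1823 lower once each array was centred on its median. Since the genes were proposed with this contrast known, nothing is read from these shares. Among the paralogs, HEK-BAHD1 replicate 1 was the lowest of its label in all 3, by 0.073, 0.14 and 0.090 under the group mean in GADD45A, GADD45B and GADD45G. The methods place a HEK-BAHD1 replicate 1 at the passage of the control cells, without saying that it is the array of that number. Set alone against the 3 control arrays, the array HEK-BAHD1 replicate 1 gave log2 differences of -0.71, -1.23 and -0.83 for these genes. The part of passage in these differences was not tested. Leaving out any array kept the differences between -1.14 and -1.03 for GADD45B, between -0.82 and -0.69 for GADD45G and between -0.67 and -0.60 for GADD45A.

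**Figure D2:**
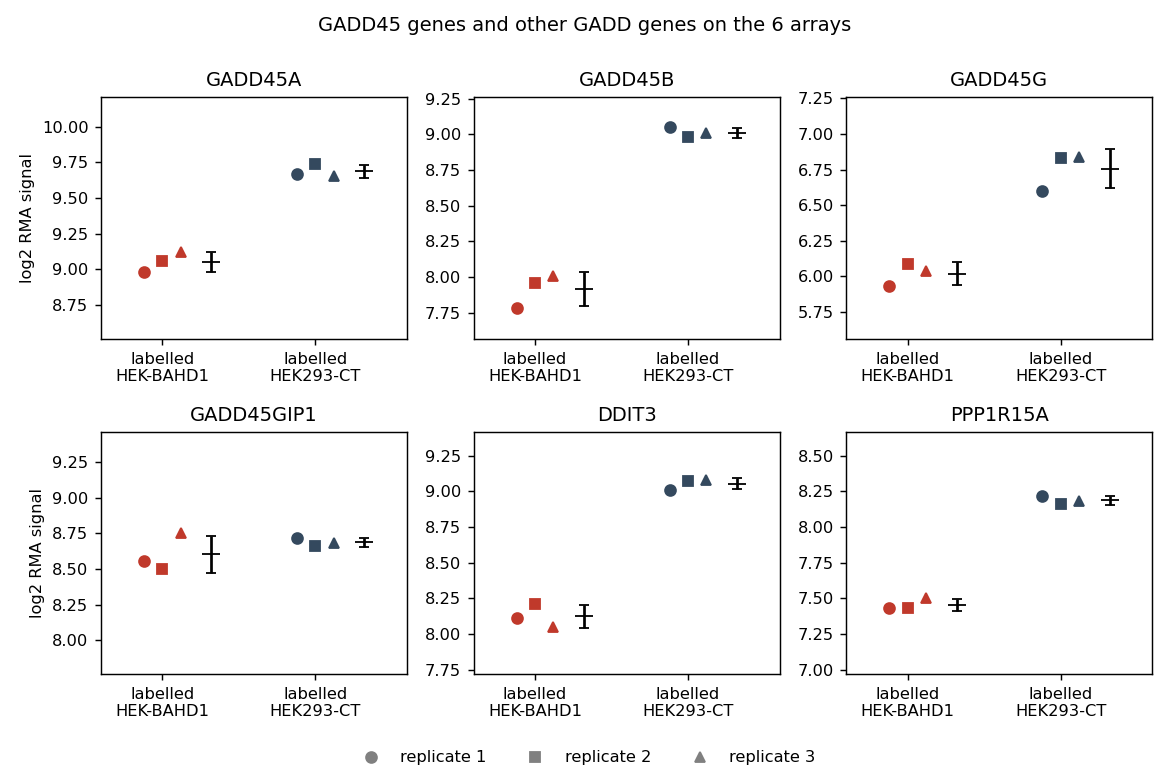
Log2 RMA signal (vertical axis, the same span of 1.7 log2 units in each panel) of the 4 GADD45 genes and of DDIT3 and PPP1R15A on the 6 arrays, labelled HEK-BAHD1 left and labelled HEK293-CT right; each marker is an array and the bar is the mean and SD of 3 arrays. In GADD45A, GADD45B, GADD45G, DDIT3 and PPP1R15A the groups do not overlap, and in GADD45GIP1 they do.

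The name GADD is shared with genes that encode unrelated proteins and were isolated by their induction under growth arrest and DNA damage. Both that were measured here were lower on the arrays labelled HEK-BAHD1. DDIT3, or GADD153, encodes the stress transcription factor CHOP, and its log2 signal was 8.11, 8.21 and 8.05 on the arrays labelled HEK-BAHD1 and 9.01, 9.07 and 9.08 on those labelled HEK293-CT (log2 fold change -0.93, standard error 0.061, limma adjusted p = 0.000375). PPP1R15A, or GADD34, encodes a regulatory subunit of the phosphatase that acts on eIF2α. Its log2 signal was 7.43, 7.43 and 7.50 on the arrays labelled HEK-BAHD1 and 8.22, 8.16 and 8.18 on those labelled HEK293-CT (log2 fold change -0.73, standard error 0.053, limma adjusted p = 0.000471). In both genes the groups did not overlap, and neither call was lost on leaving out any array. Of all probe sets 6.39% were called lower, and in 16.9% all arrays labelled HEK-BAHD1 lay below all those labelled HEK293-CT. Both genes were listed with earlier results of these data known, so nothing is read from their count.

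Transcripts of the proteins that GADD45 members bind or regulate were mostly not called. Of 167 genes in all the lists used here, 158 had a probe set of their own, and the others, MAP2K7 and MAPK14 among them, were not analysed here. Of 12 measured kinases of the p38 and JNK cascade, 0 were called in either direction, against 6.79% of all probe sets called higher and 6.39% called lower, and their log2 differences ran from -0.013 to 0.28 with a median of 0.12. At an unadjusted p under 0.05 limma gave 3 higher and 0 lower, and the local pooled error (LPE) test, the test of the methods, called 0. MAP3K4, the kinase that GADD45 proteins activate, was at 0.14 (limma adjusted p = 0.284). Of 11 genes of the G2/M transition and of PCNA and p21, CDC25C was called lower (log2 fold change -0.30, adjusted p = 0.0105) and 10 were not called. All the log2 differences of this list were negative, from -0.30 to -0.013, with a median of -0.13. At an unadjusted p under 0.05 limma gave 6 lower and 0 higher, and the LPE test called 1 lower. CDC25C encodes the phosphatase that activates CDK1. The direct partners of GADD45 proteins were not called, with CDK1 at -0.21, PCNA at -0.13, CCNB1 at -0.017 and CDKN1A, which encodes p21, at -0.093 (limma adjusted p = 0.0723, 0.146, 0.880 and 0.495). The relatives of the GADD45 fold, which include the ribosomal proteins RPL7A and RPL30, had 0 of 6 genes called by limma, with log2 differences from -0.22 to 0.19, and before adjustment 2 were higher and 1 lower at p under 0.05. The LPE test called 1 of them higher.

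Of 16 measured genes of active DNA demethylation, 2 were higher and 2 lower, or 12.5% each way, against 6.79% higher and 6.39% lower over all probe sets. The median log2 difference was -0.0050. Both higher calls held in each alternative and neither lower call did. NEIL2, a DNA glycosylase, had log2 signals of 7.86, 7.90 and 7.78 on the arrays labelled HEK-BAHD1 against 7.31, 7.38 and 7.34 on those labelled HEK293-CT (log2 fold change 0.50, limma adjusted p = 0.00243). LIG3, the ligase that completes base excision repair with XRCC1, rose by 0.35 (adjusted p = 0.00649). ING1, a histone reader reported to recruit GADD45A to DNA, was at -0.30 (adjusted p = 0.016), a call lost without HEK-BAHD1 replicate 1 or 3 or HEK293-CT replicate 3 (adjusted p at most 0.0638) and in the LPE test. TAF12, a TFIID subunit reported to link GADD45A to nucleotide excision repair, was at -0.28 (adjusted p = 0.0253). That call was lost on leaving out any array but HEK293-CT replicate 1 (adjusted p at most 0.0848) and with a replicate block in the fit. The glycosylase TDG and the dioxygenases TET1, TET2 and TET3 were not called, with log2 differences of 0.0033, 0.053, -0.27 and 0.15 (limma adjusted p = 0.979, 0.645, 0.0568 and 0.400).

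Among 20 measured transcription factors that act on GADD45 genes, 1 was higher and 2 were lower, or 5% and 10%, against 6.79% and 6.39% of all probe sets. MYC, which represses GADD45A and binds the E-box with MAX, had the largest rise of all the listed genes. Its log2 signal was 9.15, 9.15 and 9.13 on the arrays labelled HEK-BAHD1 and 8.16, 8.03 and 8.01 on those labelled HEK293-CT (log2 fold change 1.08, standard error 0.059, limma adjusted p = 0.000252). The groups were separated by nearly 1 log2 unit, in the direction opposite to that of the GADD45 paralogs. Any action of MYC on the GADD45 genes in these cells was not tested, and no upstream window of GADD45A was matched. ATF3, a stress-induced factor of the ATF family, had log2 signals of 6.64, 6.70 and 6.77 on the arrays labelled HEK-BAHD1 and 7.26, 7.34 and 7.30 on those labelled HEK293-CT (log2 fold change -0.60, adjusted p = 0.00147). SMAD4, the common mediator of TGF-beta signals, was at -0.25 (adjusted p = 0.0197). That call was lost on leaving out any array but HEK293-CT replicate 1 (adjusted p at most 0.0653). It was also lost with a replicate block in the fit and after quantile normalization again.

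Targets of NF-kB and of TGF-beta were counted because GADD45B responds to both signals. Of 10 targets of NF-kB, 2 were lower and 0 higher by limma and by the LPE test, with 3 lower and 0 higher at an unadjusted p under 0.05, and the median was -0.13. Over all probe sets 6.39% were called lower and 6.79% higher. Some of these targets had low signals, and none of those was called. Their means on the arrays labelled HEK293-CT were 4.15 in TRAF1, 4.25 in ICAM1, 4.91 in CCL2 and 4.98 in CXCL8. The markers of other cells lay at 4.42 or less. Neither call on this list held in every fit. NFKB2, a subunit of NF-kB, was at -0.36 (limma adjusted p = 0.0156), a call lost without HEK-BAHD1 replicate 3 or HEK293-CT replicate 3 (adjusted p at most 0.0534). The inhibitor NFKBIA was at -0.29 (adjusted p = 0.019). That call was lost without HEK-BAHD1 replicate 1 or 2 or HEK293-CT replicate 2 or 3 (adjusted p at most 0.0621) and with a replicate block in the fit.

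Of 8 targets of TGF-beta and BMP signals, 3 were lower and 1 was higher by limma, with a median of -0.16, against 6.39% lower and 6.79% higher over all probe sets. The LPE test called 2 lower and 1 higher, and of the 3 lower calls by limma that of ID3 alone held in each alternative. ID3, an inhibitor of helix-loop-helix factors, had log2 signals of 8.05, 8.15 and 8.23 on the arrays labelled HEK-BAHD1 and 8.94, 8.89 and 8.88 on those labelled HEK293-CT (log2 fold change -0.76, limma adjusted p = 0.000806). Its paralog ID1 was at -0.40 (adjusted p = 0.0254) and the inhibitory SMAD7 at -0.27 (adjusted p = 0.0224), and neither call held throughout. That of ID1 was lost on leaving out any array but HEK293-CT replicate 1 (adjusted p at most 0.0813). That of SMAD7 was lost without HEK-BAHD1 replicate 2 or 3 or HEK293-CT replicate 2 or 3 (adjusted p at most 0.0664). The SMAD7 call was also lost in the LPE test and with a replicate block in the fit. PMEPA1, a membrane inhibitor of TGF-beta signalling, rose by 0.56 (adjusted p = 0.00563), so that the list held calls in both directions.

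GADD45GIP1 was read beside the other proteins of the mitochondrial ribosome. Of 48 genes of the large subunit, to which its protein belongs, 2 were higher and 3 lower, or 4.17% and 6.25%. Over all probe sets 6.79% were called higher and 6.39% lower. The median log2 difference of the large subunit was -0.0050. At an unadjusted p under 0.05 limma gave 5 higher and 8 lower in it, and the LPE test called 3 higher and 3 lower. MRPL24 was at 0.46 (limma adjusted p = 0.00342), MRPL12 at 0.28 (adjusted p = 0.0269), MRPL39 at -0.31 (adjusted p = 0.0118) and MRPL1 at -0.30 (adjusted p = 0.0233). Of these, MRPL12 lost its call on leaving out any array but HEK-BAHD1 replicate 2 (adjusted p at most 0.0897). MRPL1 lost it without HEK-BAHD1 replicate 1 or 3 or HEK293-CT replicate 2 or 3 (adjusted p at most 0.0811), and MRPL39 without HEK293-CT replicate 3 (adjusted p = 0.0503). The calls of MRPL12 and MRPL1 were also lost with a replicate block in the fit. Of 25 genes of the small subunit, 1 was lower, MRPS30 at -0.40 (adjusted p = 0.00362), and 0 were higher, with a median of -0.067. At an unadjusted p under 0.05 limma gave 1 higher and 3 lower in that subunit, and the LPE test called 0 higher and 2 lower. The difference of GADD45GIP1, -0.083, lay within the range of each subunit, from -0.36 to 0.46 in the large and from -0.40 to 0.21 in the small. Over all the lists, with each gene counted once, 6 of 158 measured genes were higher and 16 lower, or 3.80% and 10.1%, against 6.79% and 6.39% of all probe sets. The lower count dropped to 6 when HEK293-CT replicate 3 was left out and to 9 when HEK-BAHD1 replicate 3 was. It was 10 on leaving out replicate 1 or 2 of HEK-BAHD1, or replicate 2 of HEK293-CT.

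**Figure D3:**
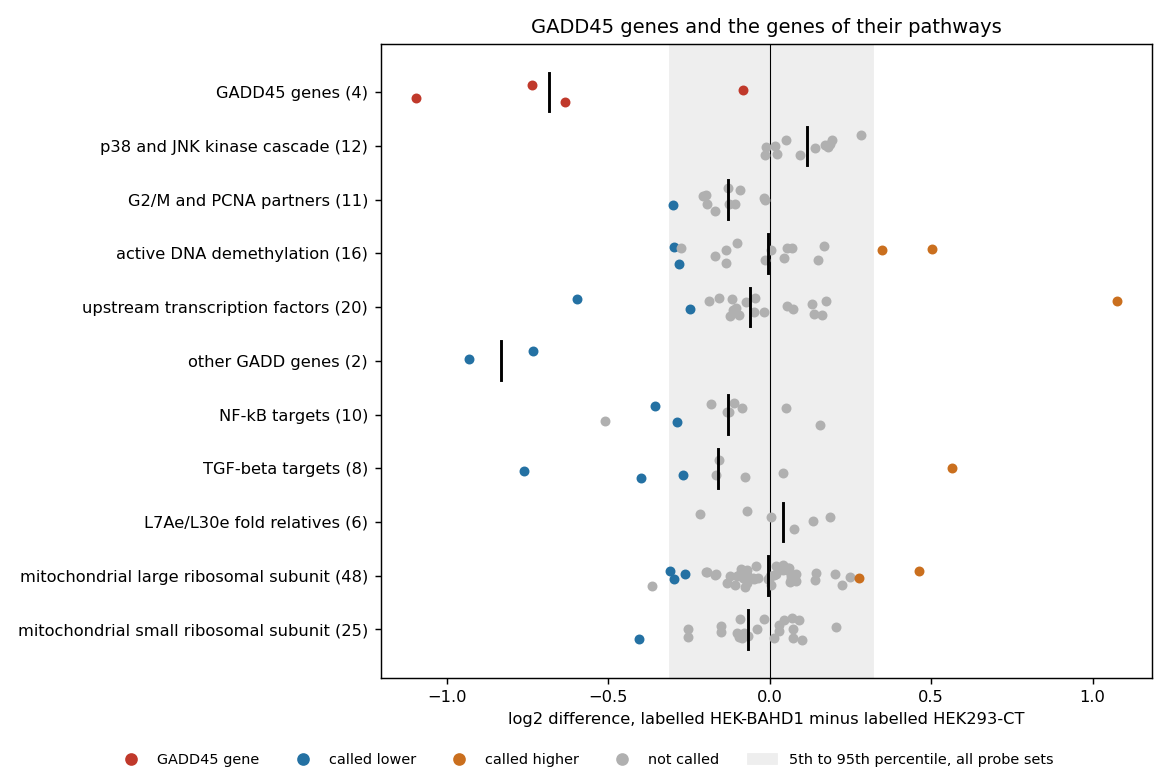
Log2 difference (horizontal axis, labelled HEK-BAHD1 minus labelled HEK293-CT) of the GADD45 genes and of each listed gene, by list (rows, number measured in brackets); black lines are the medians, colours the limma calls, and the grey band runs from -0.31 to 0.32, the 5th and 95th percentiles of all 21062 probe sets. The 3 paralogs and both other GADD genes lie left of the band, and MYC lies right of it at 1.08.

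The genes beside the GADD45 genes on the chromosomes were read for differences of the same direction. The nearest 3 measured genes on each side of the 4 genes made 24 neighbours, of which 0 were called lower by limma, 1 was called higher and 23 were not called, with log2 differences from -0.23 to 0.46. Over all probe sets 6.39% were called lower and 6.79% higher, so that few calls among 24 genes are near that share. Some neighbours had low signals, where a decrease is hard to see. Means on the arrays labelled HEK293-CT were 2.66 in C1orf141, 2.70 in IL23R, 4.59 in DIRAS2, 4.71 in DAND5 and 4.76 in DIRAS3. The markers of other cells lay at 4.42 or less. Around GADD45B on chromosome 19 the neighbours were TMPRSS9, TIMM13 and LMNB2 on the one side and GNG7, DIRAS1 and SLC39A3 on the other, with values from -0.15 in SLC39A3 to 0.29 in GNG7. LMNB2, which encodes lamin B2 and lies 19.2 kb from GADD45B, was at 0.087. Around GADD45A on chromosome 1, GNG12 at 13.1 kb was at 0.20 and the values of all 6 neighbours lay between 0.070 and 0.20. Around GADD45G on chromosome 9 the values ran from -0.21 in the kinase SYK to 0.22 in the semaphorin SEMA4D. The nearest measured genes were not always close. DIRAS2, SYK and AUH lay 1003.3, 1195 and 1607.3 kb from GADD45G, and C1orf141 lay 543.6 kb from GADD45A. The neighbour called higher was NFIX, a transcription factor gene 38.3 kb from GADD45GIP1, at 0.46 (limma adjusted p = 0.00903). A gene of the DIRAS family of small GTPases lay among the neighbours of each paralog, DIRAS3 beside GADD45A, DIRAS1 beside GADD45B and DIRAS2 beside GADD45G, at 0.080, 0.19 and 0.073, and none was called. At an unadjusted p under 0.05 limma gave 4 neighbours lower and 5 higher, and the LPE test called 0 lower and 2 higher.

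**Figure D4:**
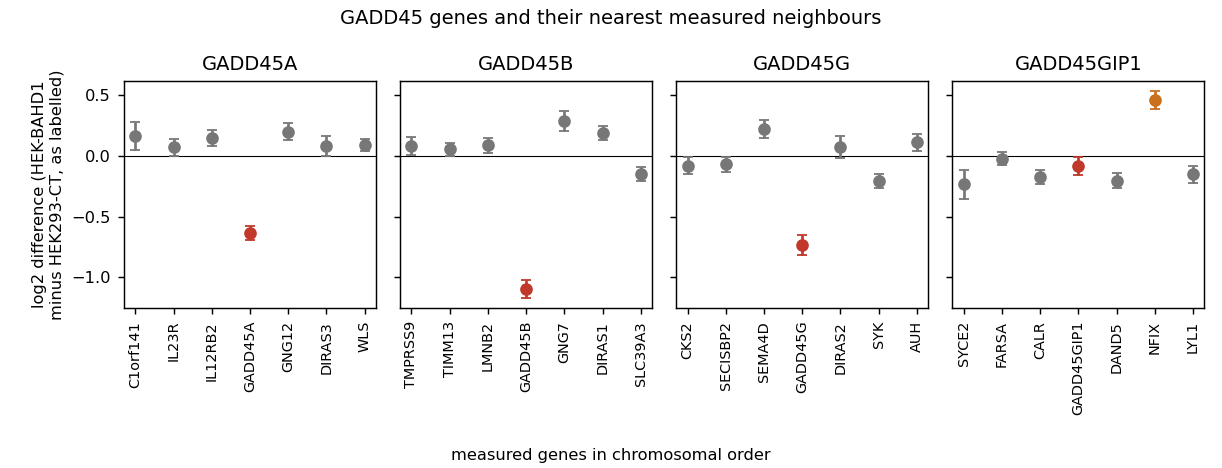
Log2 difference (vertical axis, labelled HEK-BAHD1 minus labelled HEK293-CT) of each GADD45 gene (red) and of its 3 nearest measured genes on each side (grey, not called; orange, called higher), in chromosomal order; bars are standard errors of the limma fit. Neighbours lie between -0.23 and 0.46, while GADD45A, GADD45B and GADD45G lie at -0.63, -1.10 and -0.74. Some neighbours, such as C1orf141 and IL23R, had low signals, where a decrease is hard to see.

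The genes whose levels over the 6 arrays were most like those of each paralog were ranked by Pearson's r among 18376 other genes. The 6 arrays fall into 2 groups, so r mainly reflects the difference between the labels. For GADD45A they were TRIM44, ZNF346, ATF3, CRY1 and SDHAF2, with r from 0.997 to 0.9996, and the log2 difference of the circadian repressor CRY1 was -0.50. For GADD45B they were MXD1, ID3, RRP1, CLK4 and RFPL4A, with r from 0.998 to 0.999. MXD1, which encodes a partner of MAX, was at -0.43, the kinase CLK4 at -0.65 and RFPL4A, one of a family of near-identical copies and uncertain for that reason, at -1.94. For GADD45G they were LGALS8, ARSK, RAB2B, PSMC6 and PSMG1, with r from 0.996 to 0.9998 and log2 differences from -0.47 in RAB2B to -0.15 in ARSK. No gene stood among the closest of more than 1 paralog.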

How the data were processed

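RNA of 3 HEK-BAHD1 and 3 HEK293-CT cultures was measured. The authors summarized the arrays with RMA, per the labels, and deposited log2 values of 28869 probe sets; the RMA version and the build of the array annotation are not given in the sources used here. Groups and replicate numbers came from the sample titles. Probe sets that name at least 1 gene (21062, of which 19310 name 1) entered an unblocked fit (limma 3.58.1, R 4.3.3). P-values were adjusted over all of them after Benjamini-Hochberg, and a call needed an adjusted p below 0.05 with medians more than 0.2 apart. Where a gene had several probe sets naming it alone, that with the highest mean stood for it. The alternatives included the LPE test, written here from its description with 100 bins and a smoothing spline (10 degrees of freedom), other scalings, a filter on dim probe sets, a replicate block and each array left out. The limma fit was also tested on simulated data. Members and lists were chosen with earlier results of these data known. Named genes are the members, their direct partners, up to 4 called genes per list by size of change, the 3 nearest measured genes on each side and the 5 genes most alike in profile. The 6 arrays limit the precision, and p-values reflect only how cultures from the same pool varied. A list of genes and a gene of another list are not reported here, for reasons unrelated to their values.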

Additional observations from a re-analysis of the deposited data

How the results depend on the processing

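The log2 differences of the 4 GADD45 genes, given as a description, kept their sign in the 10 alternatives run for each. Set against the controls with only HEK-BAHD1 replicate 1, an alternative chosen after seeing the data, GADD45A was at -0.71 and GADD45B at -1.23. BAHD1 stayed between -3.18 and -3.03 on leaving out any array. Leaving out an array gave 806 to 938 probe sets called higher, 581 to 937 called lower, and 6 to 16 listed genes called lower, with 5 to 6 called higher; fewer arrays were fitted. Arrays with the same replicate number did not deviate together (correlations of -0.077, 0.074 and -0.038), and the replicate block gave 962 higher and 829 lower calls, with 6 and 11 of the listed genes; the cause was not tested. Centring each array moved the calls to 1052 higher and 1823 lower, so that 36.6% of the calls were higher, against 51.5% without it. With 3 arrays per label, a p that misses the threshold does not show equal levels.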
